A study of Mus musculus with 8 samples.

Results

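The amyloid precursor gene App and 7 genes tied to it by family, processing or amyloid formation were followed in pancreatic islets that lacked or carried insulin-degrading enzyme (IDE). The 8 genes were chosen by name out of 55487 gene identifiers in each table. They are the precursors App, Aplp1 and Aplp2, the beta-secretase genes Bace1 and Bace2, the presenilin gene Psen2, the BRI2 gene Itm2b and the beta-synuclein gene Sncb. All 8 passed the low-count filter and were tested together with all other expressed genes.

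Islets were hand-picked from C57BL/6J mice, and RNA sequencing was done on 5 Ide+/+ and 3 Ide-/- samples. Mice of both genotypes were 10 weeks old when they were put on a high-fat diet (60 kcal% fat), which they ate for 2 weeks, and all are labelled female. The labels do not say how the Ide gene was inactivated or how many animals gave each islet sample. They call the samples biological replicates, so the p-values measure the spread between these samples.

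The amyloid precursor protein spans the membrane once. A beta-secretase and then the gamma-secretase complex, whose catalytic subunit is a presenilin, release the amyloid-beta peptide from it, while an alpha-secretase cuts inside that peptide and prevents its formation. IDE, a metalloprotease best known for cleaving insulin, also degrades amyloid-beta and the islet amyloid peptide amylin. BACE2 is the beta-site protease known from beta cells, where it cuts the membrane protein collectrin. Synucleins are small presynaptic proteins.

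The coding sequences below show the cut sites and motifs that make these genes a group. They were taken from GENCODE M21 transcripts on the mouse build GRCm38, and codons are counted from the start codon. The stretch of App that encodes the long form of amyloid-beta begins at the second codon in capitals. Beta-secretase cuts between the pair of codons in capitals.
App-206, codons 671 to 713: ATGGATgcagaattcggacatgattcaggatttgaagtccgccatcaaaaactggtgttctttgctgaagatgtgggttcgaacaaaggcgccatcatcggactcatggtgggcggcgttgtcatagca

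The 3 precursors share the cytoplasmic end of the protein, with the sorting motif that binds adaptor proteins such as those encoded by Apbb1 and Apba1. The capitals mark the 4 codons of that motif.
App-206, codons 737 to 766: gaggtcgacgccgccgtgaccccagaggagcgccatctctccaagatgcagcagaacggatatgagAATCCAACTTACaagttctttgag
Aplp1-201, codons 622 to 651: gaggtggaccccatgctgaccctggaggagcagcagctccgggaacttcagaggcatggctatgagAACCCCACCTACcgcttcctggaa
Aplp2-201, codons 718 to 747: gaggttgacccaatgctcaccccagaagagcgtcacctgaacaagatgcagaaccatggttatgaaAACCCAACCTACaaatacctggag

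Over these 90 bases App and Aplp2 were identical at 64 positions (71.1%), Aplp1 and Aplp2 at 63, and App and Aplp1 at 58 (64.4%). Over the aligned whole coding sequences the identities were 67.1% for App and Aplp2, 63.4% for App and Aplp1 and 62.3% for Aplp1 and Aplp2. Only App encodes amyloid-beta.

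The beta-secretases are aspartic proteases, and their first active site is shown with 5 codons on each side. The capitals mark the active site codons.
Bace1-201, codons 88 to 100: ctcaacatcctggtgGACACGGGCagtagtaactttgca
Bace2-201, codons 101 to 113: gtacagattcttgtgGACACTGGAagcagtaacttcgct

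These stretches matched at 28 of 39 positions (71.8%), against 62.9% over the aligned coding sequences. Itm2b encodes BRI2, a membrane protein that binds the amyloid precursor and from which the protease furin releases a short C-terminal peptide. The furin site is in capitals, and the peptide follows it.
Itm2b-201, codons 240 to 266: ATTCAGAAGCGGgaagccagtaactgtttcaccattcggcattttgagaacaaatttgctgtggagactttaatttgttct

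The libraries held 7143424 to 33371662 counts, with the Ide-/- libraries the shallower group (17445976 or fewer against 19277303 or more). Ide itself, the check of the genotype, had 256 to 765 counts in the Ide+/+ libraries and 4 to 7 in the Ide-/- libraries. Its level fell from 27.0 ± 7.93 (SD, n = 5) to 0.273 ± 0.10 (n = 3) CPM (counts relative to library size), a log2 fold change of -6.74 (SE 0.39, edgeR adjusted p = 6.2e-06). Against the label of female mice, Ddx3y, a gene of the Y chromosome, had 503 to 2139 counts in 7 libraries and 0 in Ide+/+ replicate 1. Xist, which is made from the inactive X, was found at 692 counts in Ide+/+ replicate 1 and at no more than 10.96 in the others. Values without Ide+/+ replicate 1 are given with Bace2, Psen2, Sncb and the gene lists.

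Ide+/+ replicates 2 and 3 stood closer to each other than any other pair of a group. Their mean chi-square per gene was 1.90 times counting noise, against 6.51 to 37.2 in the other pairs, so they differed beyond counting noise and were kept as 2 samples. Whether they came from separate animals is not stated in the labels, and libraries of 1 RNA can also differ by more than counting noise, so n = 5 may overstate the number of independent Ide+/+ samples. Summing them into 1 library, an alternative added after the data were seen, left the calls on the 8 genes as they were (Aplp2 log2 fold change -0.99, edgeR adjusted p = 0.0109). It ended the calls of Apba3 and Vcam1 among the other genes described here.

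Hand-picked islets can carry exocrine tissue, and 34 acinar marker and amylase genes, which make digestive enzymes, took 40.1% to 74.0% of the counts in Ide+/+ libraries. In Ide-/- libraries they took 1.06% to 2.55%, and all 34 were lower (edgeR, adjusted p under 0.05). The 12 beta cell markers took 1.72% to 7.82% of Ide+/+ and 13.5% to 21.96% of Ide-/- counts, and 0 of the 12 were called on CPM scaled by TMM, edgeR's correction for composition. Mitochondrial genes held 0.512% to 9.43% of the counts in Ide+/+ libraries, and 9.81% to 28.2% of those in Ide-/- libraries. The acinar, beta marker and mitochondrial shares and the depth each separate the libraries in the same way as genotype. They cannot be told apart from genotype in any difference below. In these bulk samples, fewer cells of a type and less RNA per cell cannot be told apart either.

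With TMM scaling, 1699 of 16266 tested genes were higher in Ide-/- islets (10.4%) and 1727 lower (10.6%). Of the 8 genes, 0 were higher and 1, Aplp2, was lower, and the median log2 fold change of the 8 was -0.50 against -0.01 for all tested genes. One gene of 8 is close to the share of lower genes among all tested genes. The unit decides the sign for several of them. TPM, a share of the library corrected for transcript length, is not corrected for the acinar share, and on log2(TPM + 1) the median change of all genes rose to 0.50. A TPM change is therefore given with its distance from that median.

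**Figure D1:**
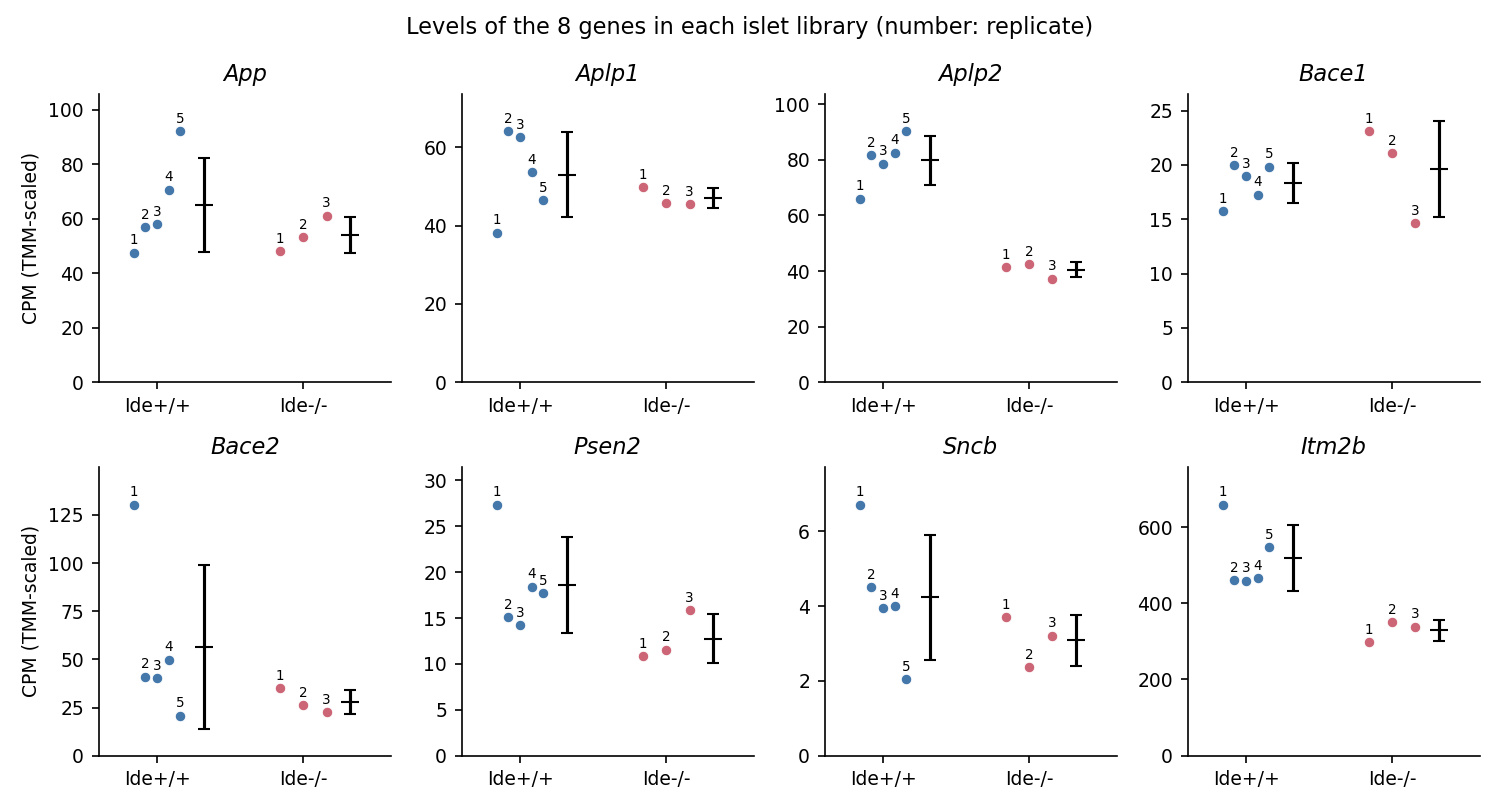
CPM with TMM scaling (vertical axes, each from 0) of the 8 genes in the 5 Ide+/+ libraries (blue) and the 3 Ide-/- libraries (red), with the replicate number above each point. Horizontal marks and bars give the mean and SD of each group. The 2 groups do not overlap for Aplp2 and Itm2b, as for 33.0% of all tested genes in either direction. Bace2 in Ide+/+ replicate 1 (130.4 CPM) lies far above the other libraries.

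Among the precursors, Aplp2 was the gene that differed on the CPM scale. Aplp2, the APP-like protein closest to App in the sequences above, lies on chromosome 9 at 31149557-31211815 on the minus strand (ENSMUSG00000031996). Its CPM was 66.0, 81.6, 78.6, 82.6 and 90.3 in Ide+/+ replicates 1 to 5 and 41.5, 42.4 and 37.3 in Ide-/- replicates 1 to 3. The lowest Ide+/+ library was thus above the highest Ide-/- library, as for 33.0% of all tested genes whose groups did not overlap in either direction. The mean fell from 79.8 ± 8.84 (n = 5) to 40.4 ± 2.72 (n = 3), a log2 fold change of -0.98 (SE 0.20, edgeR adjusted p = 0.0062), or 1.97-fold lower, whereas on log2(TPM + 1) the sign turned to 0.14 (limma adjusted p = 0.741), 0.36 below the median of all genes.

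The Aplp2 call held in each of the 8 fits that left out 1 library, with edgeR adjusted p from 0.0012 to 0.0394. It also held with the acinar and amylase genes removed (log2 fold change -0.99, edgeR adjusted p = 0.0062). It was lost when libraries were scaled to 12 endocrine granule genes (-0.91, edgeR adjusted p = 0.081) and when the acinar share entered the fit as a covariate (-1.10, edgeR adjusted p = 0.213). Its TPM overlapped between groups, at 10.53, 31.70, 29.92, 20.01 and 16.24 in the Ide+/+ and 23.96, 23.98 and 19.45 in the Ide-/- libraries. The 2 Ide+/+ libraries with the smallest acinar share, replicates 2 and 3, had the highest Aplp2 TPM, and replicate 1, with the largest share, had the lowest.

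App, the source of amyloid-beta, lies on chromosome 16 at 84949685-85173766 on the minus strand (ENSMUSG00000022892). Its CPM was 47.6, 57, 58.1, 70.7 and 92.2 in the Ide+/+ and 48.1, 53.2 and 61.1 in the Ide-/- libraries, so the Ide-/- values lay within the Ide+/+ range. The means were 65.1 ± 17.2 and 54.2 ± 6.57, and the log2 fold change of -0.27 (95% interval -0.79 to 0.26, edgeR adjusted p = 0.453) did not pass the test. In TPM the Ide-/- libraries, at 29.66, 31.13 and 32.28, were all above the Ide+/+ libraries, at 7.17, 24.36, 22.88, 17.47 and 19.36. Psen2 separated in the same way, as given with that gene. How many of all tested genes separate in this way in TPM was not counted, and on log2(TPM + 1) 36.8% were called higher. The log2(TPM + 1) change of 0.83 was 0.34 above the median of all genes and did not pass either (limma adjusted p = 0.063).

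Aplp1, the APP-like gene known for its neuronal expression, lies on chromosome 7 at 30434982-30445535 on the minus strand (ENSMUSG00000006651). Its CPM was 38.2, 64.2, 62.6, 53.7 and 46.6 in the Ide+/+ and 49.9, 45.7 and 45.5 in the Ide-/- libraries. The Ide-/- values again fell inside the Ide+/+ range, with a log2 fold change of -0.18 (95% interval -0.64 to 0.29, edgeR adjusted p = 0.589). On log2(TPM + 1) the change was 0.53, 0.03 from the median of all genes (limma adjusted p = 0.248).

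A ratio between genes of 1 library does not depend on library scaling, and the shares of the 3 precursors in their summed TPM are given as a description. Aplp2 made up 37.2%, 35.3%, 35.2%, 36.8% and 33.7% of the sum in the Ide+/+ and 26.6%, 28.9% and 26.5% in the Ide-/- libraries. Every Ide-/- library was below every Ide+/+ library, and the means were 35.6% ± 1.41 (n = 5) and 27.3% ± 1.38 (n = 3). The App share ran from 25.3% to 40.1% over the Ide+/+ libraries and from 33.0% to 43.9% over the Ide-/- libraries, and the groups overlapped. Aplp1 took 26.2% to 37.9% and 29.6% to 40.4%. In shares of counts, which are not corrected for length, Aplp2 made up 40.5% ± 1.71 and 28.6% ± 2.29. Aplp1 made up 26.9% ± 4.74 and 33.2% ± 2.24 of counts, against 34.0% ± 5.20 and 34.5% ± 5.47 of TPM. App made up 32.6% ± 4.85 and 38.2% ± 4.03 of counts, and for both genes the groups overlapped in counts. These shares come from the same reads as the CPM of Aplp2 and are not separate evidence of its difference.

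**Figure D2:**
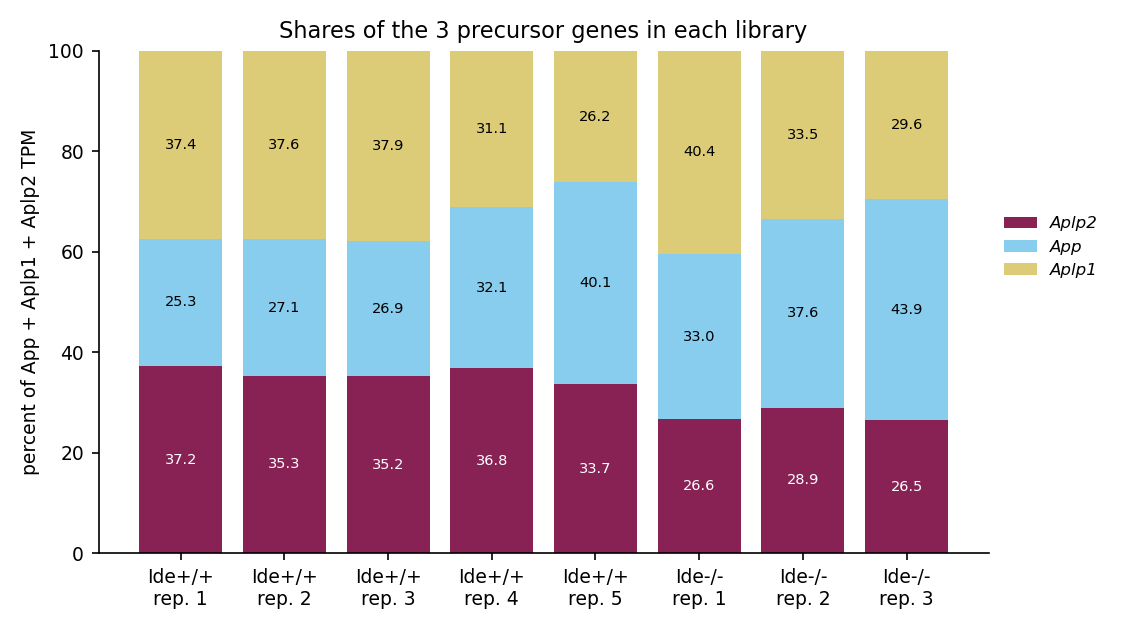
Percent of the summed TPM of App, Aplp1 and Aplp2 (vertical axis) in each library (horizontal axis), stacked to 100 percent. The Aplp2 segment takes 33.7% to 37.2% in the 5 Ide+/+ libraries and 26.5% to 28.9% in the 3 Ide-/- libraries, while the App and Aplp1 segments overlap between the groups.

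Of the beta-secretases, neither passed the test on CPM. Bace1, the protease that makes most amyloid-beta in brain, lies on chromosome 9 at 45838580-45864399 on the plus strand (ENSMUSG00000032086). Its CPM was 15.7, 20, 19.0, 17.3 and 19.8 in the Ide+/+ and 23.1, 21.1 and 14.7 in the Ide-/- libraries. The Ide-/- libraries held both the highest and the lowest value of the 8, and the log2 fold change was 0.10 (95% interval -0.32 to 0.52, edgeR adjusted p = 0.737), turning to -0.04 without Ide-/- replicate 1. On log2(TPM + 1) Bace1 was the 1 gene of the 8 called higher, by 0.88 (limma adjusted p = 0.049), which was 0.39 above the median of all genes. On that scale 36.8% of all tested genes were called higher, and with a pseudocount of 0.1 Bace1 was not called (limma adjusted p = 0.068). The TPM of Bace1 was 1.36, 4.85, 4.32, 2.69 and 2.63 in the Ide+/+ and 8.18, 6.89 and 4.43 in the Ide-/- libraries. It was the 1 gene of the 8 whose expected counts were not whole numbers, as happens where RSEM divides reads among genes that share sequence, so its level is less certain.

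Bace2 lies on chromosome 16 at 97356742-97442936 on the plus strand (ENSMUSG00000040605). Its CPM was 130.4, 41.1, 40.2, 49.9 and 20.8 in the Ide+/+ and 35.0, 26.2 and 22.7 in the Ide-/- libraries. Ide+/+ replicate 1 stood apart from all the others, and Ide+/+ replicate 5 was the lowest of the 8, so the groups overlapped. The log2 fold change was -1.01 (95% interval -2.04 to 0.02, edgeR adjusted p = 0.147), and without Ide+/+ replicate 1 it was -0.45 (edgeR adjusted p = 0.233). Bace2 was 95.6%, 82.6%, 82.7%, 86.9% and 62.2% of the TPM of both beta-secretases in the Ide+/+ and 73.9%, 68.7% and 41.9% in the Ide-/- libraries. In counts, its share was 69.99% ± 13.7 (n = 5) in Ide+/+ and 58.8% ± 2.99 (n = 3) in Ide-/- libraries. Bace2 thus held the larger part of the pair in every library by TPM except Ide-/- replicate 3, whose transcript assignment differed, as given with the lengths. That order depended on the length used. In CPM per kilobase of the longest coding transcript, chosen after the data were seen, Bace1 was the higher in Ide+/+ replicate 5 (3.28 against 2.72). It was also the higher in Ide-/- replicate 2 (3.48 against 3.42). Bace2 was the higher in all other libraries, Ide-/- replicate 3 among them (2.97 against 2.42).

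Psen2, which encodes presenilin 2, a catalytic subunit of gamma-secretase, lies on chromosome 1 at 180227004-180263438 on the minus strand (ENSMUSG00000010609). Its CPM was 27.4, 15.1, 14.2, 18.4 and 17.7 in the Ide+/+ and 10.9, 11.6 and 15.9 in the Ide-/- libraries. The ranges overlapped only through Ide-/- replicate 3, which was above Ide+/+ replicates 2 and 3. The log2 fold change of -0.54 had an unadjusted edgeR p of 0.045 and did not pass after adjustment (95% interval -1.07 to -0.02, edgeR adjusted p = 0.128), and without Ide+/+ replicate 1 it was -0.37 (edgeR adjusted p = 0.141). In TPM the Psen2 values of the Ide-/- libraries, 12.33 to 13.97, were all above those of the Ide+/+ libraries, 6.81 to 12.0, as for App. On log2(TPM + 1) the change of Psen2 was 0.49, 0.01 below the median of all genes (limma adjusted p = 0.205).

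Itm2b was the most abundant of the 8 genes, 88th of 16266 by mean CPM. It lies on chromosome 14 at 73362226-73385289 on the minus strand (ENSMUSG00000022108). Its CPM was 659, 460.3, 459.7, 466 and 548 in the Ide+/+ and 299, 349.6 and 339 in the Ide-/- libraries. The groups did not overlap, as for 33.0% of all tested genes in either direction, with means of 519 ± 86.9 (n = 5) and 329 ± 27.0 (n = 3). The log2 fold change was -0.66 (95% interval -1.26 to -0.06) and did not pass in edgeR (adjusted p = 0.109), while DESeq2 called it at -0.67 (adjusted p = 0.0052), and on log2(TPM + 1) it was 0.23, 0.26 below the median of all genes. Within the BRI family, Itm2b took 84.9% to 92.8% of the TPM of Itm2a, Itm2b and Itm2c in the Ide+/+ and 80.0% to 89.8% in the Ide-/- libraries, and these ranges overlapped.

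Sncb lies on chromosome 13 at 54758860-54766595 on the minus strand (ENSMUSG00000034891). It was the least expressed of the 8, with 19 to 177 counts a library. Its CPM was 6.71, 4.51, 3.95, 4.00 and 2.04 in the Ide+/+ and 3.70, 2.36 and 3.21 in the Ide-/- libraries. All Ide-/- values lay inside the Ide+/+ range, and the log2 fold change was -0.46 (95% interval -1.17 to 0.26, edgeR adjusted p = 0.339), and on log2(TPM + 1) 0.29, 0.21 below the median of all genes. Without Ide+/+ replicate 1, the highest library, the log2 fold change was -0.27 (edgeR adjusted p = 0.501). Of 9 neuron and Schwann cell markers, 5 passed the low-count filter, 1 was higher (Snap25) and 1 lower (Mbp), and the list held 0.0042% to 0.0125% of counts in the Ide+/+ libraries and 0.0223% to 0.0351% in the Ide-/- libraries. Snap25, which islet cells also express, held 84.5% of those counts, while Sox10, S100b, Gfap and Prph had at most 14 counts in any library. Their part in the synuclein values was not tested.

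**Figure D3:**
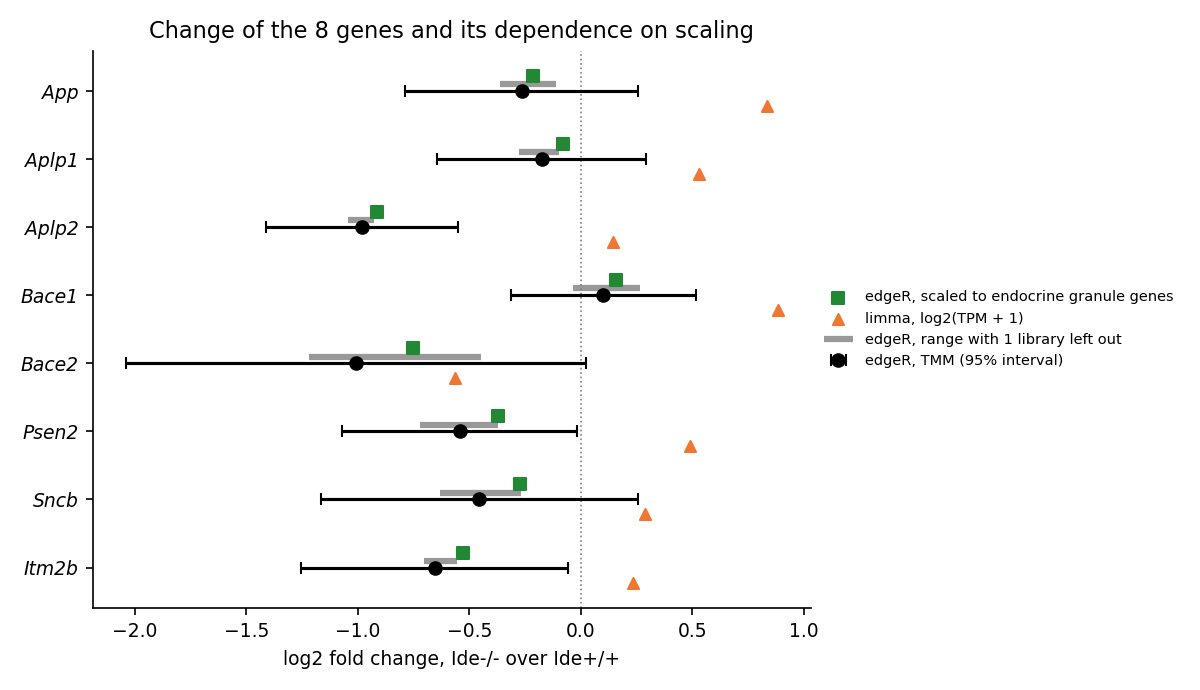
Log2 fold change, Ide-/- over Ide+/+ (horizontal axis), of the 8 genes. Black circles and bars are the edgeR estimate with TMM scaling and its 95% interval, grey bars the range over the 8 fits that leave out 1 library, green squares the edgeR estimate scaled to endocrine granule genes, and orange triangles limma on log2(TPM + 1), where the median of all genes is 0.50. The interval of Aplp2 lies farthest from 0 on the CPM scale, at -0.98, and its TPM value is 0.14, with App, Aplp1, Psen2, Sncb and Itm2b also on opposite sides of 0 on the 2 scales.

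The order of levels was read from TPM, which is per length. In Ide+/+ libraries the mean TPM was 266 ± 84.8 for Itm2b, 21.7 ± 9.01 for Aplp2, 21.2 ± 10.97 for Aplp1, 19.1 ± 9.32 for Bace2, 18.2 ± 6.77 for App, 9.18 ± 2.43 for Psen2, 3.17 ± 1.41 for Bace1 and 2.89 ± 1.59 for Sncb. Only Itm2b against Aplp2 and Psen2 against Bace1 were neighbours whose ranges over the 5 libraries did not overlap. In Ide-/- libraries the order was Itm2b (304 ± 46.0), App (31.0 ± 1.31), Aplp1 (28.6 ± 7.34), Aplp2 (22.5 ± 2.61), Bace2 (13.8 ± 10.0), Psen2 (13.0 ± 0.867), Bace1 (6.50 ± 1.91) and Sncb (3.53 ± 1.301). The same 2 steps in level, below Itm2b and below Psen2, were without overlap there. The place of App and Bace2 depended on the length used. Per kilobase of the longest coding transcript, an alternative chosen after the data were seen, Psen2 came before App and Bace2 in Ide+/+ libraries, with ranges that overlapped for all 3. In Ide-/- libraries App moved on that scale from above to below Aplp1 and Aplp2, at 6.63 ± 0.805 CPM per kilobase against 20.1 ± 1.07 and 11.1 ± 0.750, and its range did not overlap either of theirs.

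RSEM also gives each gene a mean transcript length, weighted by how much it assigns to each isoform, which moves with isoform use. The mean length of Aplp2 transcripts was 2783, 2875, 2830, 2738 and 2879 bases in Ide+/+ and 2638, 2508 and 2160 bases in Ide-/- libraries. Every Ide-/- value was below every Ide+/+ value, a mean change of -13.7% (2-sided exact permutation p = 0.0179, the smallest that 56 splits allow, and 0.143 adjusted for the 8 lengths compared). App lengths were 2940, 2625, 2741, 2687 and 2483 bases in the Ide+/+ and 2478, 2429 and 2134 in the Ide-/- libraries, so the highest Ide-/- value lay just below the lowest Ide+/+ value. The mean change was -12.9% (exact permutation p = 0.0357, and 0.143 adjusted). Of 13100 tested genes with several transcripts, 8.20% had shorter lengths in every Ide-/- library and 5.19% longer ones, and the median change was 0. In both genes Ide-/- replicate 3, the library with the fewest counts and the largest mitochondrial share, had the shortest value, and without it the mean changes were -242 bases for App and -248 bases for Aplp2.

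Bace2 has 1 long annotated transcript, Bace2-201 with 7646 bases, and 3 short ones of 271 to 806 bases. The mean Bace2 length was 1901 to 2507 bases in Ide+/+ libraries and 2317, 2460 and 7646 bases in Ide-/- replicates 1 to 3. In Ide-/- replicate 3 all 248 counts were thus assigned to the long transcript (exact permutation p of the group difference in length 0.0536, and 0.143 adjusted), and the TPM was 3.20, against 23.17 and 15.09 in the other Ide-/- libraries. In the other 7 libraries the mean length bounds the long transcript to between 16.01% and 30.3% of Bace2 transcripts. The low Bace2 TPM of that library went with its transcript assignment, since its CPM of 22.7 was near the 26.2 of Ide-/- replicate 2. Lengths of Aplp1, Bace1, Psen2, Sncb and Itm2b overlapped between groups (exact permutation p from 0.143 to 0.411), and those of Aplp1 were 2343 bases, the length of Aplp1-201, in Ide-/- replicates 2 and 3.

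**Figure D4:**
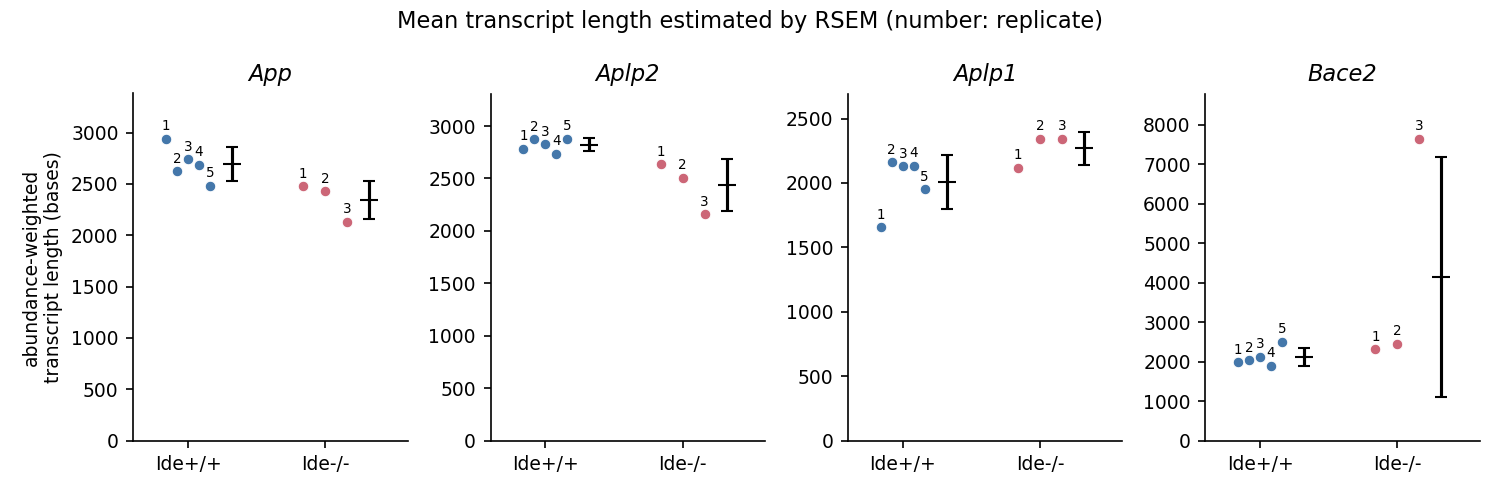
Abundance-weighted mean transcript length in bases (vertical axes, each from 0) of App, Aplp2, Aplp1 and Bace2 in the 5 Ide+/+ (blue) and 3 Ide-/- (red) libraries, with replicate numbers, group means and SDs. App and Aplp2 are shorter in each Ide-/- library than in each Ide+/+ library, and Bace2 in Ide-/- replicate 3 sits at 7646 bases, the length of its long transcript.

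Some of the 8 genes varied together over the 8 libraries and others did not. As a description of log2 CPM over 8 libraries that differ in depth and acinar share, Pearson's r was 0.91 for Bace2 with Sncb, 0.87 for Psen2 with Itm2b, 0.78 for Aplp2 with Itm2b and -0.72 for Bace1 with Psen2. The r of App with Aplp2 was 0.54 and of App with Aplp1 0.13. Among the 8203 coding genes whose mean CPM was 5 or more, the patterns most like App were those of Llph (r = 0.99) and Nhsl1 (0.97), and most like Aplp1 those of Ehd2 (0.996) and Llgl2 (0.98). Aplp2 was most like Ctsz (0.98), a lysosomal cathepsin gene, and Pdk4 (0.98), a pyruvate dehydrogenase kinase gene. Both were among the genes called lower on CPM, with log2 fold changes of -0.83 and -1.14 (edgeR adjusted p = 0.0119 and 0.00376). They were picked for likeness to Aplp2 over these same libraries, so their lower level follows from the choice and is no separate evidence. The r values of the most alike genes are the highest of 8203 over 8 libraries, so the selection itself raises them. Bace1 was most like Atrx and 2700049A03Rik (0.96 each), Bace2 like Edc3 and Rtn4ip1 (0.99 each), Psen2 like Rhoa and Chmp3 (0.99 each), Sncb like Fitm2 and Pla2g2f (0.99 each) and Itm2b like Prdx2 and Grcc10 (0.99 each).

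The other genes of amyloid and synuclein handling were taken from 8 lists with 63 tested genes. On CPM 11 were lower in Ide-/- islets (17.5%, against 10.6% of all tested genes) and 1 higher (1.59%, against 10.4%), and their median log2 fold change was -0.26. Without Ide+/+ replicate 1, 14 were lower and 1 higher, while 13.3% of all tested genes were lower. The split turned with the unit: on log2(TPM + 1), where 36.8% of all genes were higher and 2.53% lower, 12 of the 63 were higher and 2 lower. Each direction that follows is on the CPM scale.

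Of the 3 alpha-secretase genes 0 passed. Adam10, the main alpha-secretase, had 23.9 ± 7.07 CPM in Ide+/+ and 15.8 ± 0.343 in Ide-/- (edgeR adjusted p = 0.108), and Adam9 13.8 ± 3.45 and 9.55 ± 0.208 (edgeR adjusted p = 0.0927). Of 5 genes for other subunits of gamma-secretase 1 was lower, and the median was -0.46. Aph1c, which encodes a scaffold subunit, had 1.28 to 4.21 CPM in Ide+/+ and 0.696 to 0.976 in Ide-/- libraries (log2 fold change -1.81, SE 0.44, edgeR adjusted p = 0.0146), and the sign turned with the acinar share as a covariate (0.73). Its counts were low, at 34 to 72 in the Ide+/+ and 8 to 25 in the Ide-/- libraries.

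Of the 18 adaptor and sorting genes 2 were lower and 16 did not pass, with a median of -0.10. Sorl1, a receptor that sorts the precursor away from beta-secretase, had 7.92 ± 1.99 CPM in Ide+/+ and 4.61 ± 0.474 in Ide-/- (log2 fold change -0.77, edgeR adjusted p = 0.0379), but on log2(TPM + 1) 0.22. Apba3, an adaptor that binds the sorting motif shown above, had 5.22 ± 2.18 and 2.21 ± 1.04 CPM with overlapping groups (-1.22, edgeR adjusted p = 0.0471), but on log2(TPM + 1) 0.29. Sorl1 lost its call in 10 and Apba3 in 12 of 19 alternatives.

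In the BRI list 1 of 5 genes was lower, with a median of -0.13. Sppl2a, an intramembrane protease of the family that cuts BRI2, had 21.2 ± 4.98 and 12.9 ± 2.27 CPM (-0.71, edgeR adjusted p = 0.0427), but on log2(TPM + 1) 0.03, and lost its call in 11 of 19 alternatives. Of 11 substrates of the beta-secretases 2 were lower, with a median of -0.20. Fgfr1, a growth factor receptor gene, had 7.65 ± 2.29 and 3.70 ± 0.318 CPM with overlapping groups (-1.05, edgeR adjusted p = 0.022). Vcam1, an adhesion molecule gene, had 1.6 ± 0.126 and 0.708 ± 0.419 CPM (-1.31, edgeR adjusted p = 0.0326). These values rest on 15 to 68 counts in the Ide+/+ and 12 to 16 in the Ide-/- libraries. Fgfr1 lost its call in 9 and Vcam1 in 11 of 19 alternatives. Cltrn, which encodes collectrin, the BACE2 substrate of beta cells, was named after its values were seen and had 310 ± 40.6 and 286 ± 24.0 CPM (edgeR adjusted p = 0.766).

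Of 6 other tested genes of the synuclein family and its partners 0 passed in edgeR and 0 had an unadjusted p under 0.05, with a median of -0.28, but 1 of the 6 was called lower without Ide+/+ replicate 1. On log2(TPM + 1) 2 of the 6 were higher and 0 lower.

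Of 6 islet amyloid and amyloid chaperone genes 2 were lower, with a median of -0.54. Clu, which encodes the secreted chaperone clusterin, had 578, 306, 295, 496 and 668 CPM in the Ide+/+ and 64.9, 80.6 and 53.1 in the Ide-/- libraries, 7.08-fold lower (log2 fold change -2.82, SE 0.38, edgeR adjusted p = 0.00086). It was the largest change among the 63 and lost its call only with the acinar share as a covariate. Apoe, the apolipoprotein E gene, had 87.0, 252, 259, 259.6 and 418 CPM in the Ide+/+ and 97.0, 84.0 and 102 in the Ide-/- libraries, and Ide+/+ replicate 1 fell among the Ide-/- libraries (-1.44, edgeR adjusted p = 0.0285). Iapp, the amylin gene, was named after its values were seen and had 7034 ± 4710 and 5844 ± 1768 CPM (edgeR adjusted p = 0.769).

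Of 9 other genes for enzymes that degrade amyloid-beta 3 were lower and 1 was higher, with a median of -0.45. Ctsd and Ctsb, which encode lysosomal cathepsins, had 98.5 ± 30.0 and 180 ± 55.7 CPM in Ide+/+ and 35.7 ± 6.46 and 63.6 ± 12.4 in Ide-/- (-1.46 and -1.50, edgeR adjusted p = 0.0046 and 0.0057). Thop1, a metallopeptidase gene, had 6.93 ± 2.84 and 1.95 ± 0.696 CPM (-1.79, edgeR adjusted p = 0.0060). These 3 lost their calls on both TPM scales and with the covariate, and kept them in the other 16 alternatives. Ece2, an endothelin-converting enzyme gene, had 4.35 ± 2.34 and 10.1 ± 2.90 CPM (1.17, edgeR adjusted p = 0.0473), lost its call in 9 of 19 alternatives and turned to -1.26 with the covariate.

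Several of these calls were lost when 1 library was left out, in fits that also called fewer of all tested genes. Leaving out Ide+/+ replicate 4 or any 1 of the 3 Ide-/- libraries ended the calls of Sorl1, Sppl2a, Fgfr1, Apoe and Ece2, as did leaving out Ide+/+ replicate 3 for Sppl2a and replicate 5 for Ece2. Leaving out Ide+/+ replicate 2, 3 or 4 ended the calls of both Apba3 and Vcam1, as did Ide-/- replicates 2 and 3 for Apba3 and Ide-/- replicates 1 and 2 for Vcam1, each left out alone. The call of Aph1c was lost without Ide-/- replicate 1 or 3. The log2 fold changes kept their sign in all 8 such fits, from -0.86 to -0.62 for Sorl1, -0.84 to -0.57 for Sppl2a, -1.21 to -0.97 for Fgfr1, -1.66 to -1.19 for Apoe and 0.98 to 1.38 for Ece2. They ran from -1.69 to -1.02 for Apba3, -1.77 to -1.03 for Vcam1 and -2.02 to -1.63 for Aph1c.

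Macrophage and duct markers were mostly lower too, while those of several other cells mostly were not called. Of 8 endothelial markers 0 were called, and of 8 fibroblast and stellate markers 1 was lower. Of 7 alpha cell markers 1 was lower, and of 6 delta and PP cell markers 1 was higher and 0 lower. Of 10 macrophage markers 8 were lower, and their summed share was 0.0034% to 0.0141% of counts in the Ide+/+ and 0.0054% to 0.0060% in the Ide-/- libraries. Of 10 duct markers 8 were lower, with a summed share of 0.0774% to 0.137% and 0.0472% to 0.0598%. The part of acinar, duct and macrophage RNA in the lower values of Clu, Apoe, Ctsb and Ctsd was not tested.

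**Figure D5:**
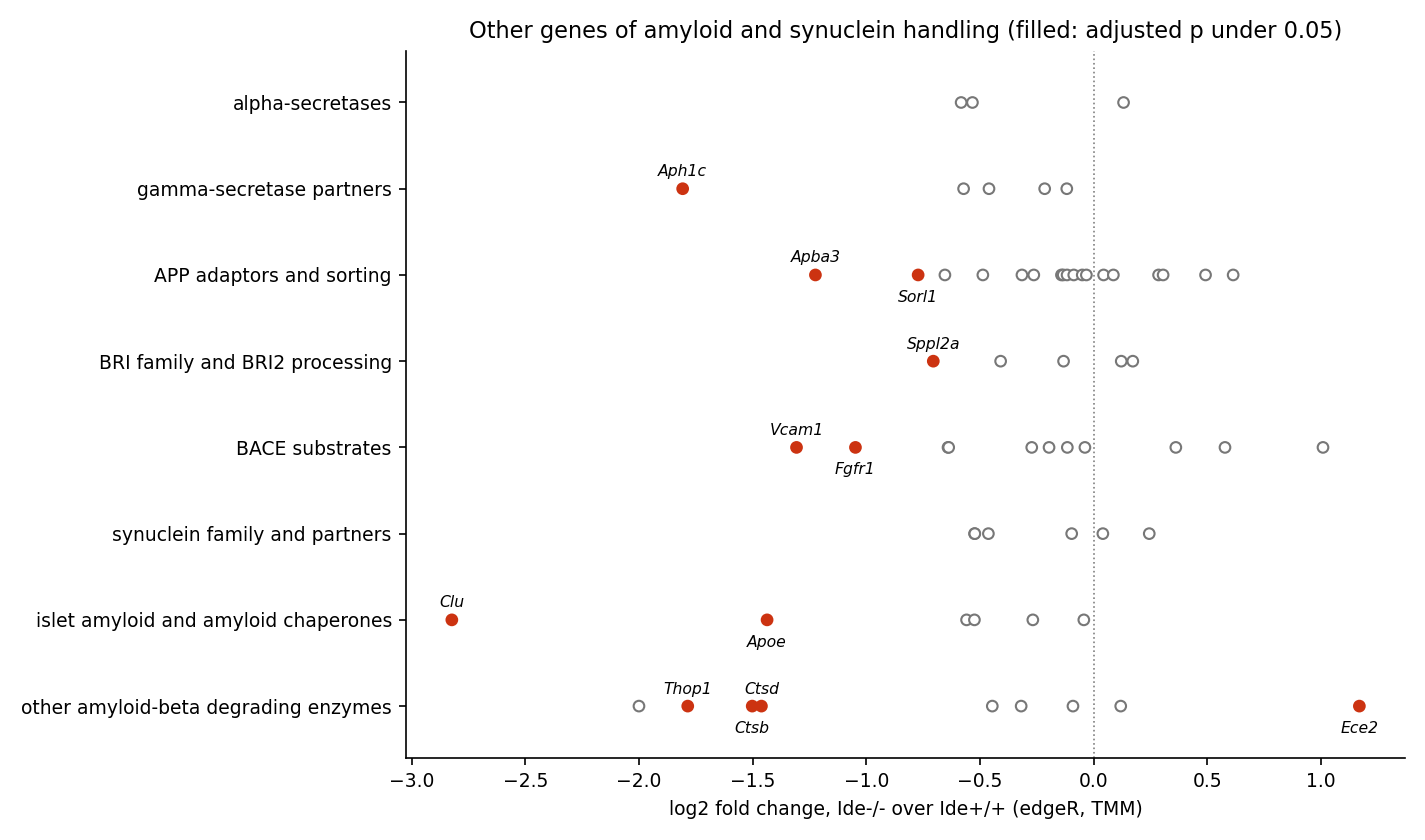
Log2 fold change, Ide-/- over Ide+/+ (horizontal axis, edgeR with TMM scaling), of the 63 tested genes in 8 lists of amyloid and synuclein handling (rows). Filled red circles are genes with an adjusted p under 0.05, named beside the point, and open circles did not pass. On this scale 11 filled circles lie below 0, with Clu lowest at -2.82, and 1 above 0, whereas on log2(TPM + 1) 2 genes were lower and 12 higher.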

How the data were processed

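RNA of islets (100 ng with an integrity number above 6.5) was made into libraries with a low-input kit, per the labels' protocols. The submitters' processing notes name STAR 2.7.1a, RSEM 1.3.1 and the build GRCm38. For the annotation release and the strandedness, the answer is not given in the sources used here, so a gene and its antisense partner cannot be told apart. The authors deposited, per library, an expected count (RSEM's estimate, not normalized), TPM, and each gene's mean transcript length and effective length, which the file headers name. Length is in bases and was deposited by the authors as RSEM wrote it.

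Of 55487 identifiers 55141 matched GENCODE M21, which gave symbols, coordinates and coding sequences. Expected counts were rounded and tested with the quasi-likelihood test of edgeR 4.0.16 (R 4.3.3, robust, TMM, default low-count filter with a minimum count of 10 and total of 15) on genotype alone. Benjamini-Hochberg adjustment ran over all 16266 tested genes, called at an adjusted p under 0.05. DESeq2 1.42.0 and limma 3.58.1 were alternatives. Intervals are 95%. The edgeR fit was tested on simulated counts with known changes, drawn from the same expression profile for all libraries. Scaling under an acinar difference such as the one here was not simulated.

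The 2-sided exact permutation p is the share of 56 splits with at least as large an absolute difference in means. That definition was settled after the first p-values were seen. With the smaller tail doubled instead, the p was 0.0357 for both App and Aplp2 lengths, and adjusted values were 0.143 or more.

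The 8 genes, lists and markers were chosen with earlier results of these data known. Named genes were Ide, the 8, in each list the called genes with the smallest p (at most 4), or its 2 most abundant genes where none was called, and for each of the 8 the 2 coding genes with the highest Pearson correlation of log2 CPM (prior count 2). Some genes of these lists are not reported here and enter no list count, and the synuclein list is given by counts alone.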

Additional observations from a re-analysis of the deposited data

Results flagged for a closer look

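One value stood apart within its group. Bace2 in Ide+/+ replicate 1 was 130.4 CPM, and the next highest Ide+/+ library had 49.9 and the lowest 20.8, so the gap took 0.734 of the group's range. It was 1 of 30 groups of 5 values examined, and chance alone marks about 1 in 20 such groups. The same library was the 1 of 8 without Ddx3y counts and had the largest acinar share, 74.0%. It also had the highest CPM of the 5 Ide+/+ libraries for Psen2 (27.4), Sncb (6.71) and Itm2b (659). For App (47.6), Aplp1 (38.2), Aplp2 (66.0) and Bace1 (15.7) it had the lowest. The part of the Ddx3y or the acinar difference in these values was not tested.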

How the results depend on the processing

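All alternatives set out at the start could be run. With 1 library left out at a time, 0 of the 8 genes were called higher and 1 lower, and the lists gave 0 to 1 genes higher and 5 to 14 lower, with 0 higher and 5 lower without Ide+/+ replicate 4 or any 1 of the 3 Ide-/- libraries. Of all tested genes, 10.6% were lower with all libraries, 6.88% without Ide+/+ replicate 4, and 5.71%, 4.75% and 5.00% without Ide-/- replicates 1, 2 and 3, in that order. The cause was not tested. Of the 8 genes, DESeq2 called 2 lower, and of all tested genes 13.5%. Scaling to endocrine granule genes, both TPM scales and the acinar covariate called 0 lower, and log2(TPM + 1) called 1 higher. The lists gave 0 higher and 5 lower with granule scaling, 0 higher without the low-count filter, 12 higher and 2 lower on log2(TPM + 1), 9 higher and 1 lower on log2(TPM + 0.1), and 0 higher and 0 lower with the covariate. Among all tested genes, 5.50% were higher and 5.06% lower with granule scaling, and 5.27% were higher without the filter. The shares higher and lower were 36.8% and 2.53% on log2(TPM + 1), and 29.3% and 2.37% on log2(TPM + 0.1). With the covariate 1 gene of all tested was higher and 15 were lower in edgeR, and 2712 had an unadjusted p under 0.05. The median of all genes moved to 0.11 with granule scaling and to 0.83 on log2(TPM + 0.1).

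Signs that turned on log2(TPM + 1) and log2(TPM + 0.1), in that order, were those of App (0.83 and 0.88), Aplp1 (0.53 and 0.56), Aplp2 (0.14 and 0.16), Psen2 (0.49 and 0.53), Sncb (0.29 and 0.43), Itm2b (0.23 and 0.24), Sorl1 (0.22 and 0.37), Apba3 (0.29 and 0.43) and Sppl2a (0.027 and 0.026). With the covariate App turned to 0.12, Bace1 to -0.23, Bace2 to 0.76, Psen2 to 0.62, Itm2b to 0.0070, Aph1c to 0.73, Sorl1 to 0.087 and Ece2 to -1.26. With 1 library left out, Bace1 ran from -0.036 (without Ide-/- replicate 1) to 0.27.

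Replicate numbers 1 to 3 occur in both genotypes, and the labels do not say whether a shared number marks a batch. Same-numbered libraries did not deviate together (0 of 3 correlations over 0.1, and 0 of 3 Ide-/- libraries correlated best with their own number). With only 3 such pairs, these correlations cannot decide whether same-numbered libraries share a batch. With the replicate block 0 of the 8 genes were lower (Aplp2 -0.90, edgeR adjusted p = 0.082), and the lists gave 0 higher and 4 lower. Among all tested genes 2.86% were higher and 4.34% lower in that fit.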
